A study of Rattus norvegicus with 16 samples.

Results

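The transcripts of 10 immediate early genes (Ccn1, Nr4a1, Nr4a2, Fos, Jun, Junb, Egr1, Ier2, Atf3 and Myc) were followed in adult rat liver. They were chosen by name, with older names such as Cyr61 for Ccn1, through the accession that the array files give for each probe. They are 10 of 26913 gene names on the array, and 11 probes measured them, 1 for each gene except Nr4a2, which had 2. Liver RNA came from male Sprague-Dawley rats aged 78 to 86 days, and each of 16 arrays held RNA pooled from 2 rats. Litters of group MM were born to dams dosed in corn oil, during gestation and lactation, with methylmercury, polychlorinated biphenyls and organochlorine pesticides mixed at 1.0 mg/kg/day, and were fostered between exposed dams. Litters of group M had the same exposure and stayed with their own mothers. Litters of group CC came from dams given corn oil and were fostered to another control dam, and litters of group C came from such dams and stayed with them. Each group had 4 arrays. For M, 1 label field names a control while the title and treatment name the mixture, and these arrays were taken as exposed. On every array Cy5 labelled the liver RNA and Cy3 labelled a universal reference RNA made from 14 rat cell lines, and dyes were never swapped. The M and MM arrays lay on one slide and the C and CC arrays on the other, so exposure and slide cannot be told apart. Each slide held 2 rows of arrays, and each row held 2 arrays of each of its 2 groups. Nothing in the labels tells whether rats came from one litter.

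Immediate early genes are transcribed within minutes of a growth factor, hormone or stress signal, without new protein synthesis. MAP kinase and cyclic AMP pathways reach them through factors already bound to their promoters, chiefly SRF with ETS partners at CArG boxes and CREB at cyclic AMP response elements (CRE). Many of the products are themselves transcription factors, and in liver several are best known from the first response after partial removal of the organ.

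RefSeq promoters of the GRCr8 assembly were at hand for 6 of the 10 genes. The 250 bases upstream of the start are shown for 4 genes that hold different elements, 5′ to 3′ on the gene's own strand, with capitals marking every match to the motifs searched.
Egr1: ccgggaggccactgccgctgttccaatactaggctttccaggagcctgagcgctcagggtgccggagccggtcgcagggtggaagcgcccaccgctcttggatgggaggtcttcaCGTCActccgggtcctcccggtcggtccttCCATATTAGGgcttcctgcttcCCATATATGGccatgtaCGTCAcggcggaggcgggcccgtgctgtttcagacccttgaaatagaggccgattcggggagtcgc
Junb: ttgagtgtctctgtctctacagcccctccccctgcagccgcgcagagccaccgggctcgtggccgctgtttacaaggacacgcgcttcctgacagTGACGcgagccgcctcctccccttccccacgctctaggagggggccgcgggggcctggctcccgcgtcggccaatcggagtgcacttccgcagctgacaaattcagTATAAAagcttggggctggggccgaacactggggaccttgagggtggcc
Ier2: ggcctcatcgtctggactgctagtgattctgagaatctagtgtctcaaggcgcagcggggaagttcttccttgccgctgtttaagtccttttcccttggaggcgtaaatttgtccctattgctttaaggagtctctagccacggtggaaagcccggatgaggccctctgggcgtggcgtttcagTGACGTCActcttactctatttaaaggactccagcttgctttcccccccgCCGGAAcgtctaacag
Ccn1: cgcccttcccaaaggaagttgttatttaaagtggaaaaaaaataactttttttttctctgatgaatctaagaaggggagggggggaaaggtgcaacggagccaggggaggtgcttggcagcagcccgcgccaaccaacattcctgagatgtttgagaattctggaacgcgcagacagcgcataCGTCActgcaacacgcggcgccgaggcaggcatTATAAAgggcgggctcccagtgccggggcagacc
The windows are chr18:26736828-26737077 on the plus strand for Egr1, chr19:40080876-40081125 on the plus strand for Junb, chr19:40399123-40399372 on the plus strand for Ier2, and chr2:237225690-237225939 on the minus strand for Ccn1. Both strands were searched for the CArG box, the CRE TGACGTCA, its half-site TGACG, the AP-1 site TGANTCA, the EGR site GCGNGGGCG, the ETS site CCGGAA and the TATA box TATAAA. The CArG box occurred 2 times in Egr1, and it was present in 1.5% of 27457 rat promoters. The full CRE occurred in Ier2, against 1.7% of all promoters, and each full CRE also counts as a half-site. The half-site occurred in all 6 promoters, against 19% of all promoters. It holds a CG step, and the 6 windows had 52% (Nr4a2) to 74.8% (Nr4a1) G and C. The median over all promoters was 52%, and promoters of like G and C content were not compared. The TATA box was found in Junb and Ccn1 (13.1% of all promoters), the ETS site in Ier2 and Nr4a1 (13.4%), and the EGR site in Nr4a1 (4.53%). The AP-1 letters were in none of the 6 windows and in 6.36% of all promoters. These matches describe the letters and do not show that a factor binds there.

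By the scanner software's own criterion, liver signal passed background clearly for 35.0% to 41.9% of probes per array and reference signal for 61.6% to 66.1%. Log ratios of different arrays correlated at 0.941 to 0.985 across probes, and no array pair held identical values. All 12 hepatocyte markers were above background on all 16 arrays, as were 11 of 12 Kupffer cell and macrophage markers. Of 6 neutrophil markers listed, 5 were on the array. Of these 5, 0 were above background on all 16 arrays and 3 were on no array. Pools of 2 rats were the replicates. Values below are log2 of the liver over the reference signal after background correction and loess within each array, unless a channel is named. A feature is the brightest probe of 1 name, and 11082 features passed a filter on liver signal and were tested in limma. Called means an adjusted p under 0.05 over all of these. In whole tissue, fewer cells of a type and less RNA per cell cannot be told apart.

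All 10 genes were above background in the reference RNA on 16 of 16 arrays, and 9 of the 10 were detected in liver. Jun, Junb, Egr1, Ier2, Atf3, Myc, Nr4a1 and the brighter Nr4a2 probe were above background in liver on all 16 arrays. Ccn1, a matricellular protein secreted into the surrounding matrix, passed on 14 of 16 arrays, namely 3 of 4 in MM, 4 of 4 in M, 4 of 4 in CC and 3 of 4 in C. The second Nr4a2 probe passed on 10 of 16 arrays, and its log ratio averaged −0.41, against −1.34 for the brighter probe. Fos, the founding FOS subunit of AP-1, passed in liver on 0 of 16 arrays and was not tested, and the other 9 of 10 members passed the filter.

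Among the AP-1 members, Jun, the partner that Fos pairs with, averaged −1.31 ± 0.70 (SD, n = 16 arrays), a signal 2.48-fold lower in liver than in reference RNA. Junb, a Jun relative with weaker activating power, averaged −2.51 ± 0.31 and was 5.70-fold lower in liver. Atf3, a stress-induced factor of the ATF family that can pair with Jun, averaged −1.10 ± 0.46 and was 2.14-fold lower in liver. Fos gives only a bound: its signal was at least 8.04-fold higher in reference RNA than in liver. All 4 AP-1 and ATF members therefore gave less signal from liver than from the cell lines.

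The orphan nuclear receptors were also lower in liver. Nr4a1, which induces gluconeogenic genes in mouse liver, averaged −3.19 ± 0.22 and was 9.16-fold lower in liver. Nr4a2, its relative known for its role in dopamine neurons, averaged −1.34 ± 0.18 and was 2.54-fold lower. Egr1, a zinc finger factor induced by growth signals, averaged −1.66 ± 0.26 and was 3.16-fold lower. Myc, which drives growth and ribosome production, averaged −2.79 ± 0.31 and was 6.90-fold lower. Ccn1 averaged −2.75 ± 0.29 and was 6.72-fold lower, and Ier2, a short nuclear protein of the early growth response, averaged −2.05 ± 0.22 and was 4.14-fold lower. These folds carry any dye bias, since no array had the dyes swapped. They also hold the offset added to both channels in background correction, and their size depends on the processing. In the scanner software's own log2 ratio, Ccn1 ran from −4.39 (CC replicate 3) to −3.05 (MM replicate 1), below its loess mean. Nr4a1 ran there from −4.10 (CC replicate 3) to −3.06 (C replicate 12). Junb ran from −2.91 (MM replicate 4) to −2.32 (CC replicate 4), on both sides of its loess mean. Differences between probes of different genes also hold probe effects and were not compared.

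**Figure D1:**
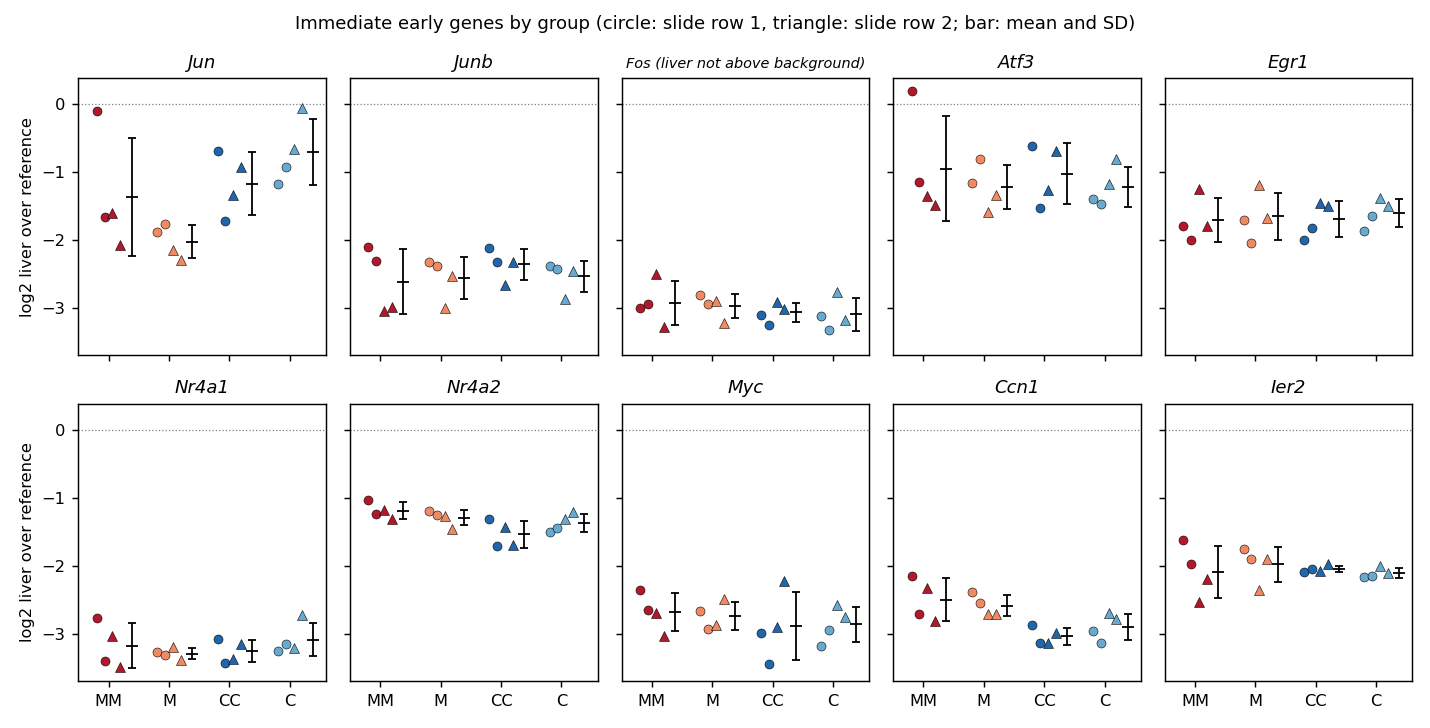
Log2 liver over reference signal of the 10 immediate early genes on each array, with groups MM, M, CC and C along the horizontal axis, circles for slide row 1, triangles for slide row 2, and bars for the group mean and SD. Jun and Atf3 spread most, with SDs of 0.70 and 0.46 over the 16 arrays, and Fos was not well above background in liver.

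Fostering gave no called difference in any of the 9 tested genes. In CC against C, limma called 0 of 9 members and 0% of the 11082 features (105 features and 0 members at an unadjusted p under 0.05). In MM against M it also called 0 of 9 members and 0% of features (197 features and 0 members unadjusted). The median difference of the 9 was −0.10 in CC against C, beside −0.01 over all features, and 0.08 in MM against M, beside 0.00. With 4 pools in each group these fits leave wide intervals for Jun. Its MM minus M difference was 0.66 ± 0.35 (SE, 95% interval −0.08 to 1.41), and its CC minus C difference was −0.46 ± 0.35 (interval −1.21 to 0.28). The difference between these 2 fostering effects was 1.12 ± 0.50 for Jun, with an unadjusted p of 0.0376 and an adjusted p of 0.999 in limma. No feature was called for that difference (0%, 190 features unadjusted), and Jun was the 1 member under 0.05 unadjusted.

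The array values show where the width comes from. Jun log ratios were −0.10, −1.66, −1.60 and −2.07 in MM and −1.88, −1.76, −2.15 and −2.29 in M. They were −0.68, −1.72, −1.34 and −0.92 in CC and −1.18, −0.92, −0.66 and −0.05 in C. C replicate 12 and MM replicate 1 were the highest of the 16, and of the other 3 MM arrays MM replicate 4 lay within the range of M and the others above it. Atf3 log ratios were 0.19, −1.15, −1.35 and −1.49 in MM and −1.16, −0.81, −1.58 and −1.34 in M. They were −0.61, −1.53, −1.26 and −0.69 in CC and −1.39, −1.47, −1.17 and −0.81 in C. The 4 groups overlapped for Atf3, and MM replicate 1 was again the highest of all arrays. In the liver channel MM replicate 1 was highest for both genes, with 11.13 for Jun, where no other MM array passed 9.66, and 8.28 for Atf3, where none passed 6.95.

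MM replicate 1 was the highest of the 16 arrays for Ccn1, Junb, Ier2 and Atf3 in both the log ratio and the liver channel. With Nr4a2 it was highest for 5 of 9 genes in the log ratio, and with Jun for 5 of 9 in the liver channel. It was among the 3 highest for 8 of 9 genes in the log ratio and for 7 of 9 in the liver channel. With the spot position trend described below removed, it was highest for 4 of 9 genes in each measure. It was then among the 3 highest for 8 of 9 in the log ratio and 6 of 9 in the liver channel. Among Ccn1, Junb, Ier2 and Atf3, only Atf3 then stayed highest there in both measures. How often this array ranked as high over all features was not counted. Without it, the Jun MM minus M difference was 0.24 and the difference of fostering effects 0.71. The Atf3 MM minus M difference was −0.10 without it and 0.27 with it. Whether a property of the tissue, its handling or the array lies behind these values was not tested.

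**Figure D2:**
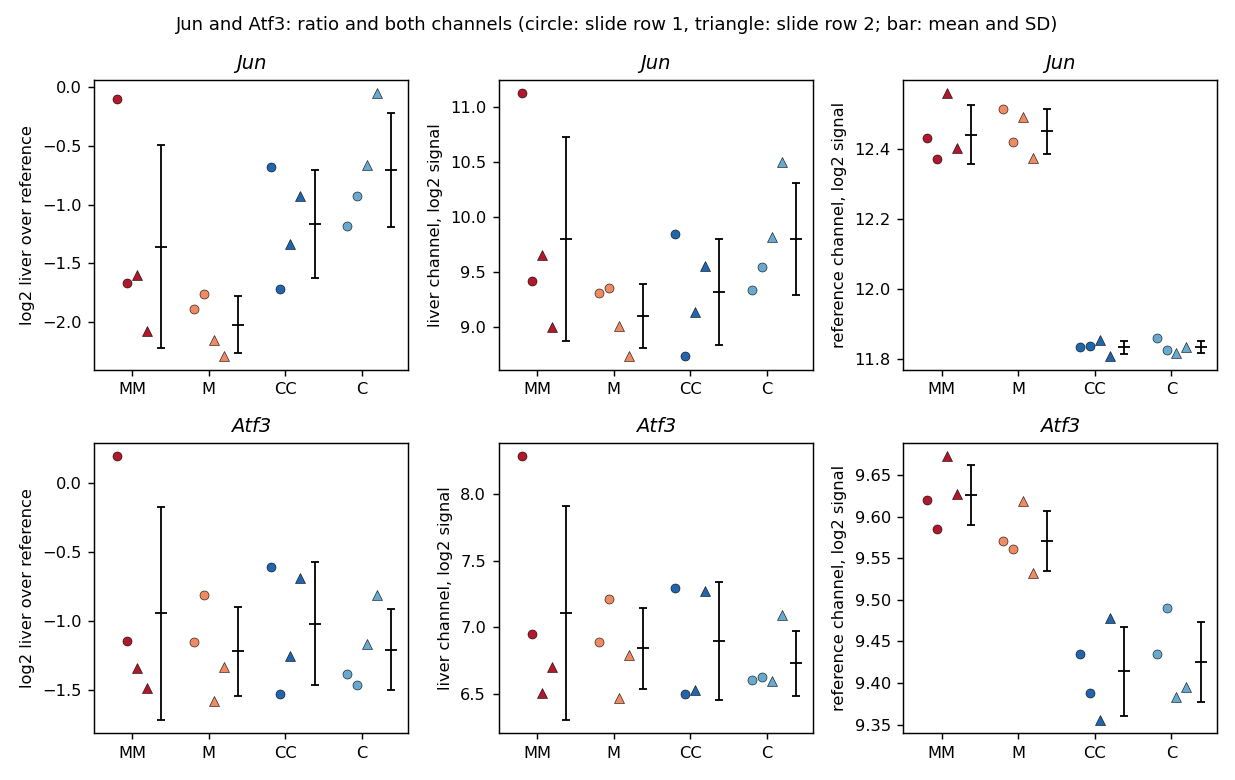
Jun (upper panels) and Atf3 (lower panels) on each array, as the log2 liver over reference ratio at left and the log2 signal of the liver and reference channels beside it, with MM, M, CC and C along the horizontal axis, circles for slide row 1, triangles for row 2, and bars for mean and SD. MM replicate 1 reaches 11.13 for Jun and 8.28 for Atf3 in the liver channel, and the Jun reference signal averages 12.44 in MM and 12.45 in M, against 11.83 in CC and 11.83 in C.

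Exposure was compared in adult rats that had stayed with their mothers (M against C) and in fostered ones (MM against CC). Jun was lower in M and was the only one of the 9 tested genes called there. Its log ratio averaged −2.02 ± 0.24 in M and −0.70 ± 0.48 in C (SD, n = 4 each), a difference of −1.32 ± 0.35 (SE), or 2.49-fold lower, with an adjusted p of 0.0449 in limma. The 1 member called compares with 4.21% of all features called (2.62% called lower). The 4 M arrays lay below the 4 C arrays, as 11% of features had arrays that did not overlap in either direction. The median of the 9 members was −0.01, beside −0.03 over all features.

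In the Jun comparison the reference channel difference was called and the liver channel difference was not. In the liver channel Jun had 9.32, 9.36, 9.01 and 8.74 in M and 9.34, 9.55, 9.82 and 10.50 in C, and the groups met at the M replicate 6 and C replicate 9 values. The liver difference was −0.70 ± 0.38 (95% interval −1.51 to 0.11, adjusted p = 0.68 in limma), where 0.00902% of features were called. In the reference channel Jun had 12.52, 12.42, 12.49 and 12.38 in M and 11.86, 11.82, 11.82 and 11.83 in C, without overlap, as held for 42.3% of features there and for 42.9% in MM against CC. That reference difference of 0.62 ± 0.04 (adjusted p = 6.8e-09) is between hybridisations of one reference RNA on 2 slides. The Jun call was lost with the values of the authors' deposited table in the same fit (adjusted p = 0.0655), with no filter on dim probes (adjusted p = 0.0755), within slide row 1 (−0.77) and within slide row 2 (−1.86), and in 11 of 16 fits that left out 1 array (adjusted p up to 0.136). Erythroid markers, 1 of 8 marker lists, also differed between M and C. Of the 8 listed, 5 were on the array and above background on all 16. Their summed liver signal ran from 18098 to 27450 in M and from 39003 to 51735 in C. It ran from 23845 to 38259 in CC, also below C, and from 22044 to 65349 in MM. MM replicate 1, the highest array for Jun in the liver channel, had 22044. The part of these markers in the Jun difference was not tested.

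In fostered rats limma called 0 of 9 members for MM against CC, while 0.884% of features were called. At an unadjusted p under 0.05 there were 1223 features and 2 members. The 2 were Ccn1 and Nr4a2. Ccn1 had −2.15, −2.70, −2.32 and −2.81 in MM and −2.87, −3.13, −3.13 and −2.99 in CC, a difference of 0.53 ± 0.14 (adjusted p = 0.109 in limma, and 0.0479 with slide row as a block). The Ccn1 arrays did not overlap, as held for 6.55% of features. Nr4a2 had −1.02, −1.23, −1.18 and −1.31 in MM and −1.31, −1.70, −1.42 and −1.69 in CC, a difference of 0.34 ± 0.11 (adjusted p = 0.181, and 0.0482 with both Nr4a2 probes averaged). In the liver channel the differences were 0.07 ± 0.12 for Ccn1 and 0.10 ± 0.11 for Nr4a2, and in the reference channel −0.38 ± 0.05 and −0.18 ± 0.05. For Jun the MM minus CC difference was −0.19 ± 0.35 with all arrays and −0.61 without MM replicate 1 (adjusted p = 0.366). The median of the members was 0.08, beside −0.02 over all features.

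The reference signal differed between the slides for most of the genes. In limma, 8 of 9 members (all but Nr4a1) were called in the reference channel for M against C and likewise for MM against CC, where 48.3% and 45.3% of features were called. Limma called 0 of 9 members in the liver channel in any of the 5 comparisons of groups, and at most 1 had an unadjusted p under 0.05. MM against CC in the liver channel had 0.0361% of features called. Jun moved most in the reference channel (0.62 in M against C, 0.61 in MM against CC), followed by Ccn1 (−0.32 and −0.38). Nr4a2 had −0.22 and −0.18, Atf3 0.14 and 0.21, Junb 0.13 and 0.12, Egr1 −0.11 and −0.14, Ier2 −0.12 and −0.12, and Myc −0.07 and −0.05. A log ratio between groups on different slides therefore holds this reference difference as well as the liver difference.

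**Figure D3:**
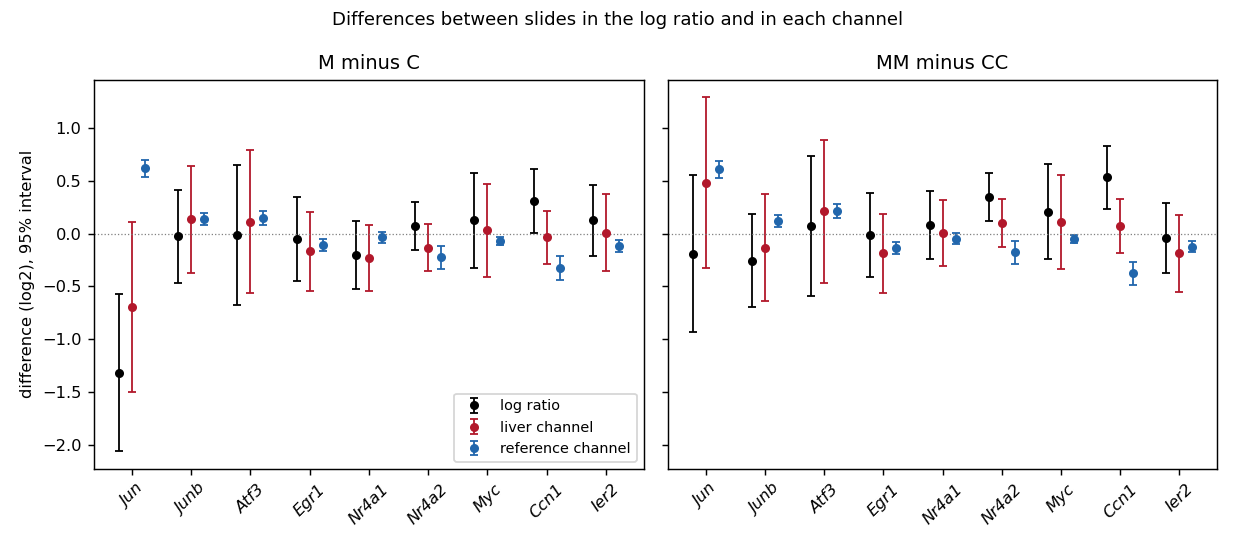
Differences between the exposed and the control slide (M minus C and MM minus CC, log2) for each gene, for the log ratio (black), the liver channel (red) and the reference channel (blue), with bars showing 95% intervals. The reference differences reach 0.62 for Jun and −0.38 for Ccn1 with narrow bars, while the liver bars are wider.

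Slide rows crossed the groups, and 2 of the 9 genes differed between them. Junb was lower in row 2, where the lowest, median and highest log ratios were −3.04, −2.76 and −2.32, against −2.42, −2.32 and −2.10 in row 1. Egr1 was higher in row 2, with −1.80, −1.47 and −1.19, against −2.03, −1.84 and −1.65 in row 1. The rows overlapped for both genes. The differences were −0.44 ± 0.10 for Junb (adjusted p = 0.0022) and 0.39 ± 0.09 for Egr1 (adjusted p = 0.0024) in limma, where 42.5% of all features were called. They lay in the liver channel (−0.51 and 0.37, 45.3% of features called), and 0 members were called in the reference channel, where 2.08% of features were.

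The row differences followed where a spot lies on the array. The median difference of all spots above background, row 2 minus row 1, was 0.55 in the first 48 spot rows and −0.52 in the last 48. The single Junb spot lies in spot row 326. The Egr1 spots lie in spot rows 6 and 99 and differed by 0.56 and 0.23. Ier2 shows the trend within 1 probe, since its 10 spots carry the same sequence: the difference was 0.47 in spot row 61, −0.07 in spot row 222 and −0.64 in spot row 370. All 820 probes with 10 spots above background fell with spot row. In the scanner software's own log ratio, the Junb difference was 0.003 and the Egr1 difference 0.02, with 0 of 11082 features called.

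**Figure D4:**
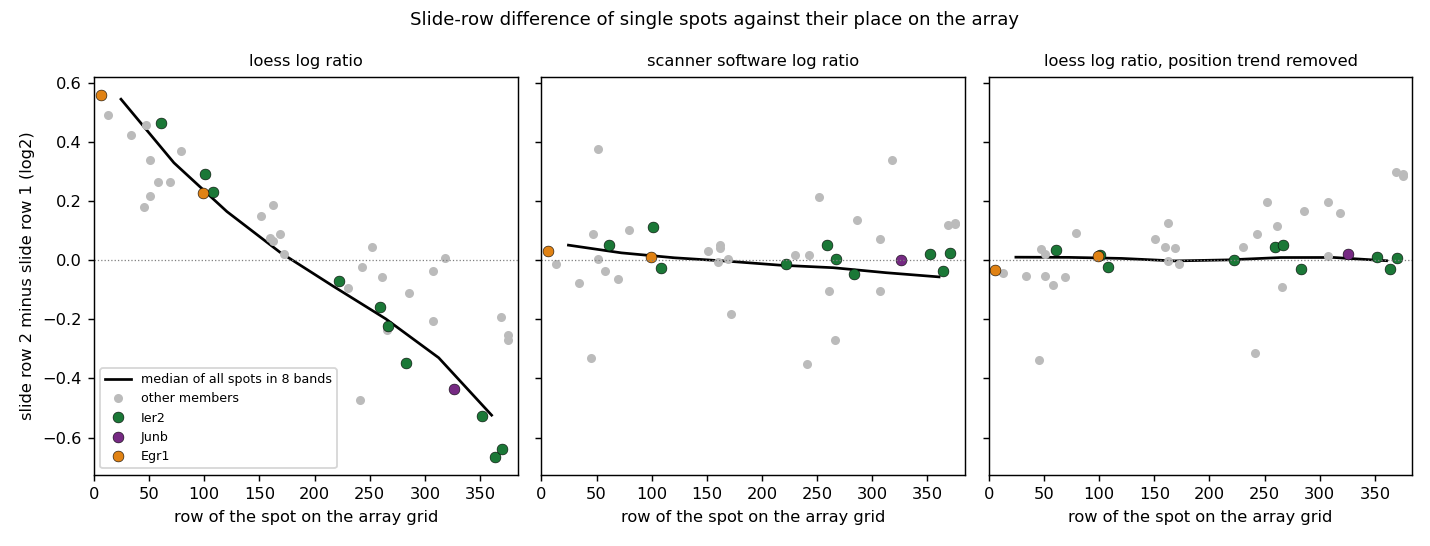
Difference between slide rows (row 2 minus row 1, log2 liver over reference) against spot row on the array, with points for the spots of the 9 tested genes and a line for the medians of all spots in 8 bands, for the loess ratio, the scanner software's ratio and the loess ratio after trend removal. In the first panel the band medians run from 0.55 at the first spot rows to −0.52 at the last. In the other panels the line stays near 0, after trend removal by construction.

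An alternative chosen after seeing the data removed a smooth trend in spot position from each array. The trend was fitted to these same values, so row differences that follow spot position are removed by construction. The Junb row difference was then 0.02 (adjusted p = 0.95) and the Egr1 difference −0.01 (adjusted p = 0.986), with 0% of features called (1105 at an unadjusted p under 0.05). Jun in M against C was −1.27 ± 0.37 (adjusted p = 0.0334), with 12.7% of features called. That Jun call was lost in 5 of 16 fits without 1 array, namely without C replicate 10, 11 or 12 or M replicate 7 or 8. Within slide row 1 it was −0.72 (adjusted p = 0.47) and within slide row 2 it was −1.83 (adjusted p = 0.0429). In MM against CC, Ccn1 was called at 0.59 ± 0.16 (adjusted p = 0.0406) and Nr4a2 at 0.38 ± 0.10 (adjusted p = 0.0461), with 5.28% of features called. Leaving out 1 array lost the Ccn1 call in 9 of 16 fits and the Nr4a2 call in 10 of 16. After this step 0 of 9 members were called in the liver channel in any comparison of groups or between slide rows (0.397% of features). The reference channel again had 8 of 9 called in M against C (46.5% of features) and 8 of 9 in MM against CC (43.5%).

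Within groups, Jun and Atf3 moved together from array to array. Correlations were taken over 16 arrays between deviations of the liver channel from the group means, for all 36 pairs of the 9 genes, with 100000 permutations and adjustment over the pairs. Values were shuffled over all 16 arrays after the group means were removed. That does not allow for the means fitted, so the permutation p-values may be too small. Arrays share the position trend, so values with it removed are given here. Jun and Atf3 had r = 0.92 and rho = 0.82 (permutation adjusted p = 0.00036 for r and 0.0036 for rho). Without MM replicate 1 and C replicate 12, the arrays farthest from the median of Jun, r was 0.82. It was 0.92 on the control slide, 0.93 on the exposed slide, 0.98 in slide row 1 and 0.83 in slide row 2. Without MM replicate 1 alone r was 0.81, rho 0.66 and the permutation adjusted p 0.00936. Before the trend was removed r was 0.87 and rho 0.76. Atf3 was dim in liver, with a spot signal of 86 (MM replicate 3) to 176 (CC replicate 4) outside MM replicate 1, which had 299.5. Median liver background was 69 to 73.

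In all, 10 of 36 pairs passed by r and 6 by rho after the trend was removed. Junb and Myc had r = 0.77 and rho = 0.82, and the pair Ier2 and Myc had r = 0.76 and rho = 0.73. Nr4a1 had r = 0.76 with Atf3 and r = 0.74 with Jun, but their rho of 0.63 and 0.52 did not pass. Leaving out 1 array, with 5000 permutations, gave 2 passing pairs without MM replicate 1 and up to 14 without MM replicate 3. With 100000 permutations 3 pairs passed by r without MM replicate 1. Before the trend was removed 13 pairs passed by r and 9 by rho, among them Junb and Egr1 at r = −0.82. That pair had r = 0.21 once it was removed (permutation adjusted p = 0.636). Among the pairs passing by r before removal, the share of 5988 features that correlated as far with the first gene varied widely. It ran from 0.0167% for Jun and Atf3 to 19.6% for Egr1 and Ier2, and was 10.5% for Junb and Ier2. A passing pair is therefore not by itself closer than many other features. These shares are not given here for values with the trend removed.

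**Figure D5:**
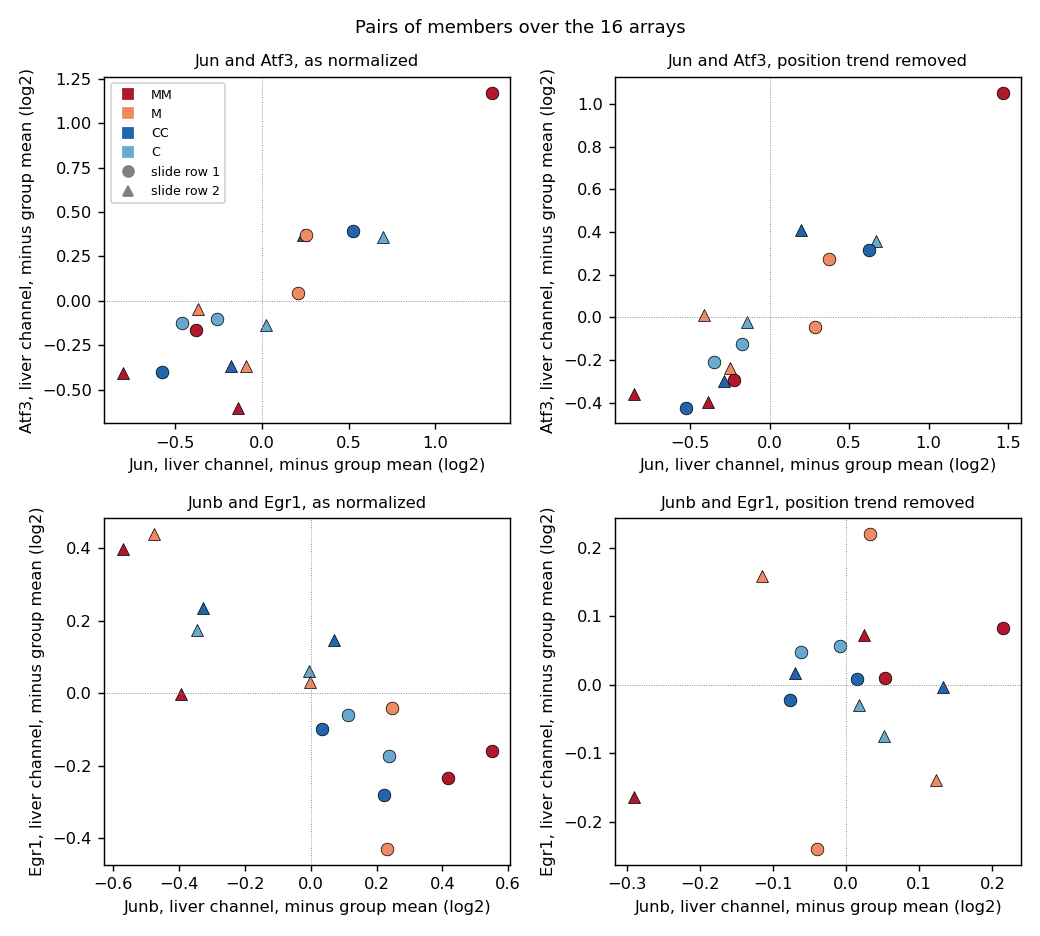
Deviations of the liver channel from group means (log2) for Jun and Atf3 (upper panels) and Junb and Egr1 (lower panels), as normalized at left and with the position trend removed at right, with 1 point per array. Jun and Atf3 have r = 0.87 and 0.92, with MM replicate 1 farthest to the upper right, and Junb and Egr1 have r = −0.82 and 0.21.

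Over the same 16 arrays, the features most like each gene were named as descriptions, by Pearson's r among 5980 features with symbols. For Atf3 it was Sfxn5, a mitochondrial carrier protein, both before (r = 0.87) and after the trend was removed (r = 0.88), and for Nr4a2 it was Il33, a cytokine, in both (r = 0.86 and 0.86). Junb was closest to Rptor (r = 0.97) before and to Nr5a2, a nuclear receptor of bile acid synthesis, after (r = 0.90). After removal, Jun was closest to Sh3bgrl1 (r = 0.85), Nr4a1 to Akap5 (r = 0.89), Egr1 to Ascc1 (r = 0.92), Ier2 to Slc19a1 (r = 0.85), Myc to Cdk16 (r = 0.87) and Ccn1 to Ranbp10 (r = 0.87). Before it, these 6 were closest to Fgfrl1, Tmco4, Sco1, Igf2r, P4ha2 and Dpys. The mean standard score of the 9 genes was closest to Sh3bp4, Sfxn5, Bin1, Taok3 and Il17ra before (r from 0.84 to 0.88) and to Taok3, Acadvl, Bckdha, Irf3 and Akap5 after (r from 0.84 to 0.87). Among 5988 features Atf3 itself was the nearest to Jun.

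Beyond the 10 genes, 5 lists of 106 genes covered AP-1 partners, NR4A and EGR relatives, the MYC network, other early and feedback genes, and upstream regulators, and 60 of the 106 were tested. In M against C limma called 1 of the 60 higher and 4 lower, where 4.21% of all features were called (2.62% lower), and the median was −0.02 beside −0.03 over all features. Trib1, a pseudokinase that directs protein degradation, fell by 0.86 (adjusted p = 0.0040), and Plk2, a kinase of the early growth response, fell by 0.92 (adjusted p = 0.0057). Elk3, an ETS partner of SRF, fell by 0.43 (adjusted p = 0.0057) and Rhob, a small GTPase, fell by 0.56 (adjusted p = 0.0381). Both channels were compared with the position trend removed. Reference signal differed in M against C by 0.76 for Trib1, 0.61 for Plk2, 0.53 for Elk3 and 0.33 for Rhob. Liver signal in the same fit differed by −0.13 for Trib1, −0.24 for Plk2, −0.08 for Elk3 and −0.22 for Rhob. As normalized, 0 of the 60 were called in the liver channel in limma (4 at an unadjusted p under 0.05).

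In MM against CC limma called 1 of the 60 higher and 0 lower, where 0.884% of all features were called. Trib1 (−0.51), Plk2 (−0.57), Elk3 (−0.12) and Rhob (−0.17) were not called. None of the 60 was called for CC against C, for MM against M or for the difference between those effects in limma (0, 3 and 1 at an unadjusted p under 0.05). Among the lowest unadjusted p were those of Mnt (0.13) in CC against C, of Elk3 (0.26) and Plk2 (0.36) in MM against M, and of Elk3 (0.32) and Rhob (0.39) for the difference of effects, with log2 differences in brackets and adjusted p near 1. Between slide rows 12 of the 60 were called higher in row 2 and 11 lower, beside 42.5% of all features called in either direction. They included Creb1 (0.51), Srf (−0.38), Met (0.36) and Atf1 (−0.19) among the upstream regulators, and Cebpb (0.91), Klf6 (0.41), Nfkbia (0.57) and Ier5l (0.35) among the early and feedback genes. Mafg (0.21), Jund (0.29) and Nab2 (−0.18) were called too, and with the position trend removed 0 of the 60 were called between rows.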

How the data were processed

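The deposited scanner files (array design 028279) hold, for each spot and both dyes, a median intensity and its local background, written by Agilent Feature Extraction 11.0.1.1 per the file headers. That software also gave a log10 ratio of processed red over green, per the file headers. The authors' deposited value table was taken as log2 liver over reference: it correlated at 0.989 to 0.996 with loess ratios without background subtraction. Each array's median lay between −0.04 and −0.03, and its centring is unknown.

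Intensities were background-corrected (normexp, offset 50) and loess-normalized within arrays in limma 3.58.1 under R 4.3.3. The plan named mean spot signals, but medians are what the files carry. Spots with outlier marks were left out (732 to 1138 per array). Channels were also quantile-normalized apart. Of 30367 probes, 18005 received a RefSeq symbol (GRCr8 table). A name was tested if its brightest probe was well above background in liver on at least 3 of the 4 arrays of a group. One fit covered all 4 groups, with Benjamini-Hochberg adjustment. The fit was tested on simulated data. Median liver spot signal was 79 to 93 over a background of 69 to 73, which limits dim genes. The 16 pools limit the precision.

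Features were named where limma called them in a pathway list, at most 4 per list and contrast (where it called none, the 2 of lowest p), or where r with a gene (1 each) or with the members' mean score (5) was highest. Genes, lists and alternatives were chosen with earlier results of these data known. Same-numbered MM and CC arrays share a slide row, and their deviations correlated at 0.16 to 0.58, so numbers were treated as pairs in an alternative. Some results of the pathway lists are not reported here.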

Additional observations from a re-analysis of the deposited data

Results flagged for a closer look

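In groups of 4 arrays, 4 of 116 sets of values held an array whose gap to the nearest other exceeded Dixon's 95% limit. Chance alone gives such a gap in about 1 in 20 sets. In the liver channel, Ccn1 was lowest in CC replicate 3 (6.38), Ier2 was lowest in M replicate 7 (9.12), and Atf3 was highest in C replicate 12 (7.09). In the log ratio, Junb was lowest in C replicate 11 (−2.87). All of these values hold the spot position trend. With it removed, Junb in C replicate 11 was −2.44 and C replicate 9 was lower (−2.57). Ccn1 in CC replicate 3 was then 6.44 (nearest 6.51), Ier2 in M replicate 7 was 9.28 (nearest 9.49), and Atf3 in C replicate 12 was 7.12 (nearest 6.74). Dixon's limit was not applied to the values with the trend removed.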

How the results depend on the processing

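Of 2352 member differences recomputed under alternatives, 2060 kept their direction and side of the threshold, 26 lost a call, 18 gained one and 248 had the other sign. In 244 of the 248 neither value was called and at least 1 lay within its SE. For M against C, 0 members were called with the authors' deposited table, the liver channel alone, the liver channel after loess and Aquantile, no filter on dim probes, within slide row 1, within slide row 2, and with the position trend removed within slide row 1. For MM against CC, 1 was called with the mean of all probes (Nr4a2) or slide row as a block (Ccn1), and 2 with the trend removed. With the replicate block for MM against CC, 0 members were called and 131 features, against 98 without it, and no member's call changed. Between slide rows 0 were called with the scanner log ratio or the trend removed and 1 within slide 1. In the liver channel 1 was called within slide 1 and 0 with the trend removed. In the reference channel, M against C gave 5 (row 1) and 4 (row 2) within rows, and 5 and 5 with the trend removed. MM against CC gave 4 within row 2, and 5 (row 1) and 4 (row 2) with the trend removed. The other 4 were between slide rows, for Junb under the scanner ratio (0.00267) and the trend removal (0.0199), for Egr1 under the trend removal (−0.00837) and for Atf3 within slide 1 (0.27).

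Leaving out 1 array gave 0 to 1 members in M against C, 0 to 0 in MM against CC (0 to 2 with the trend removed), 2 to 2 between slide rows, 2 to 3 in the liver channel there, 8 to 8 and 7 to 8 in the reference channel, 0 to 0 in CC against C, MM against M and their difference, 10 to 10 members below 0 in the log ratio, and 7 to 18 correlated pairs (2 to 14 with the trend removed). Calls over all features in M against C (466) were 1364 with the scanner ratio, 1 with the liver channel, 24 after loess and Aquantile, 1173 with the row block, 184 and 4 within rows, 269 with only those groups, 1408 with the trend removed (215 and 24 within rows), and 213 to 541 without 1 array (847 to 1419 with the trend also removed). In MM against CC (98) they were 484, 4, 19, 409, 65 and 1, 14, 585 (58 and 0), and 31 to 106 (255 to 602) under the same settings. Between slide rows (4711) they were 0 with the scanner ratio, 1507 within slide 1, 0 with the trend removed and 4262 to 4819 without 1 array. In CC against C the scanner ratio gave 1. The cause of these changes was not tested, except that settings within a row or slide hold fewer arrays.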
